A study of Mus musculus with 10 samples.

Results

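The genes described here are Kat7, which encodes a histone acetyltransferase also known as HBO1, and the genes of the proteins that form complexes with it. They were taken by symbol as a fixed list of 10 genes out of the 20813 in the deposited table, and all 10 were present and passed the filter on low values (mean normalized count of at least 10 over the 10 samples), which left 15276 genes for testing. RNA came from leukemic spleens of C57BL/6 mice that were given sublethal irradiation and then injected with T-cell acute lymphoblastic leukemia (T-ALL), a cancer of immature T cells. All leukemias, those of the controls included, carried a conditional Sirt1 knockout allele. The recipients were given corn oil alone or tamoxifen in corn oil (3 mg per mouse), and the genotype label divides them into 5 control and 5 Sirt1-deleted samples, the latter here called labelled-deleted. The abbreviations in the sample titles divide them in the same way, so deletion and treatment cannot be told apart. The Cre driver, the deleted exons, the number of primary leukemias behind the samples and the age of the animals are not given in the sources used here. Where samples do not come from separate leukemias, the p-values measure only the spread between these samples.

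KAT7 belongs to the MYST family of acetyltransferases and works as the catalytic subunit of complexes of several subunits. A scaffold protein joins it to an ING protein, which reads methylated histone H3, and to the small subunit MEAF6. With a scaffold of the BRPF family (BRPF1, BRPF3 or BRD1, which is also called BRPF2) the enzyme acts mainly on histone H3, and with a JADE scaffold it acts mainly on histone H4. The BRPF scaffolds, ING5 and MEAF6 also serve the related enzymes KAT6A and KAT6B. KAT7 is known for its part in loading the replicative helicase at origins of replication, and in thymocytes its complex with BRD1 is known to take part in Cd8 gene activation.

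Sirt1, which encodes a NAD-dependent protein deacetylase, is the targeted gene and was examined first. Its gene-level value was 1873 ± 146 normalized counts in the labelled-deleted samples beside 1810 ± 62.5 in controls (SD, n = 5 each), and the groups overlapped. The log2 difference was 0.05 (SE 0.06; limma adjusted p = 0.568), so the level did not set the groups apart. Exons of Sirt1 overlap an antisense transcript. The libraries were strand-specific per the labels, but whether the quantification used strand is not given in the sources used here, so the Sirt1 value is uncertain. A gene-level value also does not show the loss of part of a gene, and the library label is used as given. The deposited values summed to between 33.7 and 34.5 M per sample (M, mega). All 12 T lineage markers were detected, of which 3 were higher (Cd3d, Lat and Thy1) and 3 lower (Cd5, Cd27 and Cd247) in limma. Over all tested genes, 16.8% were called as higher and 19.4% as lower. The median log2 difference of the 12 markers was 0.05. Summed values of these markers were 184701 to 224821 in the labelled-deleted samples and 162533 to 180582 in controls. Most of this gap came from Thy1 alone (mean 79592 in the labelled-deleted samples and 53217 in controls).

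Of the 10 genes, 4 were lower in the labelled-deleted samples (Kat7, Brd1, Jade2 and Jade3), 1 was higher (Meaf6) and 5 did not pass the test (Brpf1, Brpf3, Jade1, Ing4 and Ing5). The test was limma on log2(normalized count + 1), with p-values adjusted over all 15276 genes and a threshold of 0.05. The background was high. By the same rule 36.1% of all tested genes were called, 19.4% as lower and 16.8% as higher. The median log2 difference of the 10 genes was -0.07, beside -0.00014 for all tested genes, and the median size of the difference, sign aside, was 0.15 beside 0.23. The groups did not overlap for 4 of the 10 genes (Kat7, Brd1, Jade2 and Meaf6), against 24.0% of all tested genes. In whole spleen RNA, fewer cells of a type and less RNA per cell cannot be told apart.

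**Figure D1:**
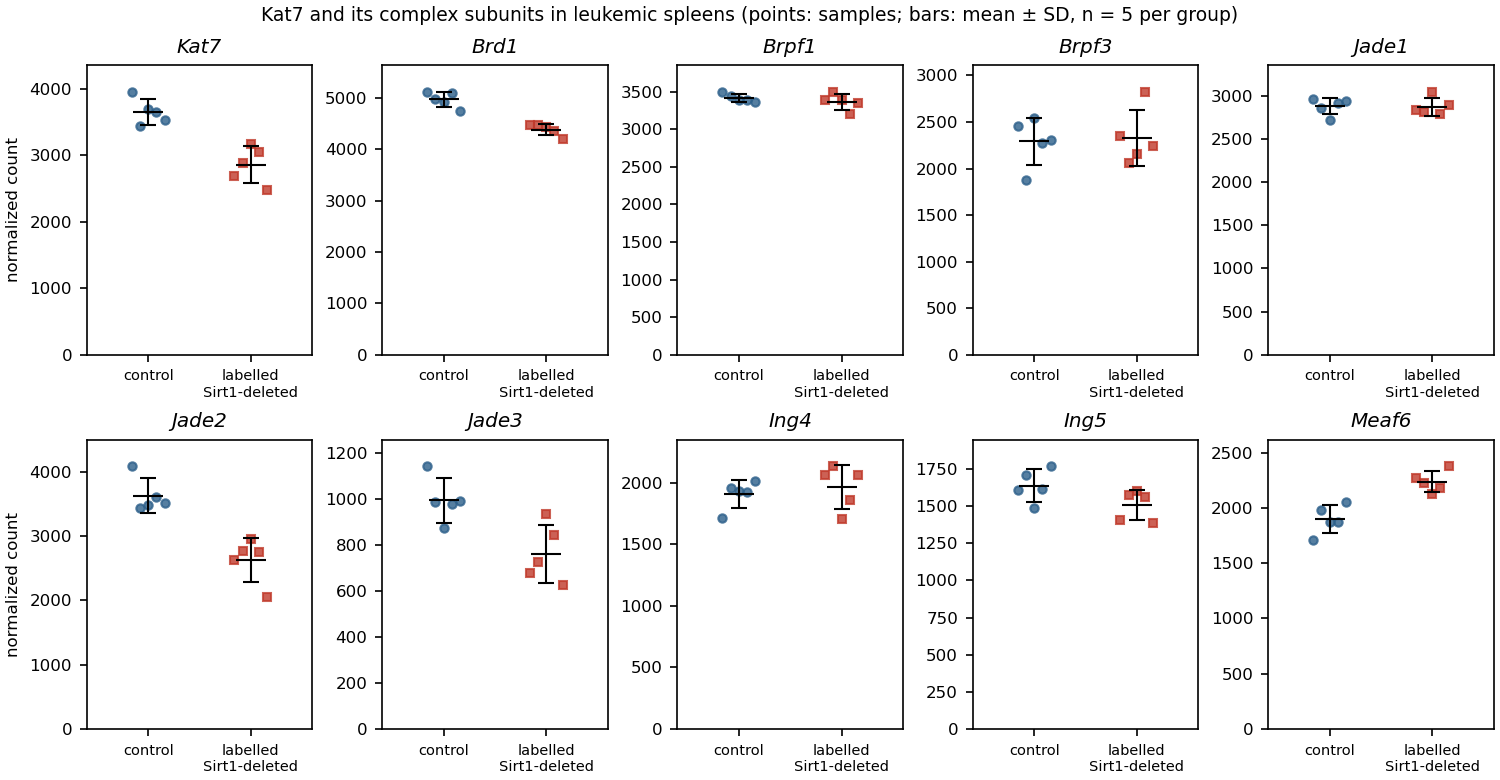
Normalized counts (vertical axes, from 0) of Kat7 and its 9 complex subunits in 5 control (circles) and 5 labelled-deleted samples (squares), with mean ± SD. The values of Kat7, Brd1, Jade2 and Meaf6 do not overlap between the groups, while those of Jade3, Brpf1, Brpf3, Jade1, Ing4 and Ing5 do. Of the genes that overlap, only Jade3 passed the test (limma adjusted p under 0.05).

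The promoters of Kat7 and Meaf6 are shown because these genes moved in opposite directions. Each window runs from 250 bases before to 50 bases after the annotated start, 5′ to 3′ on the gene's strand, from RefSeq on GRCm38.p6. Kat7 lies on the minus strand (window chr11:95310197-95310496) and Meaf6 on the plus strand (window chr4:125084884-125085183). Capitals mark matches, on either strand, to 3 short motifs chosen after the sequences were seen: CCGGAAGT of the ETS family, GCGCANGCG of NRF1 and AANATGGCG of YY1, where N is any base.
Kat7: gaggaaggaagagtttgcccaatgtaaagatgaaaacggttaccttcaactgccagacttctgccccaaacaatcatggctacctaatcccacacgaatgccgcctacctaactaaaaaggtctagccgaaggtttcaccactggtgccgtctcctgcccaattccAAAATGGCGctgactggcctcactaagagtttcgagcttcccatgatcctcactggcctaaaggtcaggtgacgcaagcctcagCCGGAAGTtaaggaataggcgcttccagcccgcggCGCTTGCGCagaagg
Meaf6: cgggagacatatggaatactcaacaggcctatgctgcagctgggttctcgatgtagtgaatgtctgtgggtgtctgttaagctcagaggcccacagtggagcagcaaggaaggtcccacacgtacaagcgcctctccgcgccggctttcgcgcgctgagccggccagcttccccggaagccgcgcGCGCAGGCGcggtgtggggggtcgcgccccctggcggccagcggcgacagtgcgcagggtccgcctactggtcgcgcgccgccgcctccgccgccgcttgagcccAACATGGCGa
The Kat7 window held 1 match to each motif. The ETS match began at the start site itself (position 1), the YY1 match at position -84 and the NRF1 match, read on the opposite strand, at position 36. The Meaf6 window held an NRF1 match at position -65 and a YY1 match at position 41, so the NRF1 and YY1 motifs were found in both genes. It also holds the letters ccggaagc, which differ from the ETS motif only in the last base and were not counted as a match. None of the matches in these windows overlapped another. Over all 32851 promoter windows in the RefSeq table, 3.89% held the ETS motif, 6.25% the NRF1 motif and 2.38% the YY1 motif. These shares are per window, while the counts that follow are per gene. The median GC content of all windows was 52.7%, and the windows of the list ran from 46.7% (Ing4) to 78.7% (Brpf3). Since the motifs were also chosen from these sequences, the counts are no test of enrichment. Of the 9 genes of the list with a window, 2 held the ETS motif (Kat7 and Ing4), 2 the NRF1 motif (Kat7 and Meaf6) and 4 the YY1 motif (Kat7, Meaf6, Ing5 and Jade1, the last in 1 of its 4 windows). The windows of Brd1 and Jade3, both of which fell, held none of these letters, nor did those of Brpf1 and Brpf3. Jade2 had no window in the table. A match is a description of the letters and not of binding.

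Kat7, the catalytic subunit, was lower in every labelled-deleted sample than in any control. Normalized counts were 2682 in labelled-deleted replicate 7, 2881 in replicate 8, 3173 in replicate 10, 3045 in replicate 11 and 2477 in replicate 12. In controls they were 3954 in replicate 2, 3437 in replicate 3, 3694 in replicate 4, 3640 in replicate 5 and 3522 in replicate 6. The lowest control thus stood above the highest labelled-deleted sample, replicate 10, while replicate 12 was the lowest of all. Kat7 fell by 21.9% on group means (log2 difference -0.36, SE 0.07, 95% interval -0.51 to -0.21; limma adjusted p = 0.00239; exact two-sided permutation p = 0.00794, the smallest that 5 against 5 samples allow). Of all tested genes, 1838 had a more negative log2 difference. The gene (ENSMUSG00000038909.16) spans positions 95274259 to 95310246 of chromosome 11 on the minus strand (GRCm38, GENCODE M21), and its exons overlap no other annotated gene.

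Of the BRPF scaffolds, Brd1 fell, and Brpf1 and Brpf3 did not pass the test. Brd1 measured 4477, 4463, 4424, 4355 and 4202 normalized counts in labelled-deleted replicates 7, 8, 10, 11 and 12, and 5123, 4969, 4929, 5090 and 4739 in control replicates 2 to 6. The spread within each group was narrow (SD 113 and 153), and the groups did not overlap. Brd1 fell by 11.8% on group means (log2 difference -0.18, SE 0.04; limma adjusted p = 0.0055). Brpf1, which also scaffolds KAT6A and KAT6B, ranged from 3201 to 3497 in the labelled-deleted samples and from 3358 to 3502 in controls. Its log2 difference was -0.02, with a 95% interval of -0.11 to 0.07 (limma adjusted p = 0.709), so a fall as large as that of Kat7 lay outside the interval. Brpf3 varied most among the BRPF genes, from 2056 to 2827 in the labelled-deleted samples and from 1879 to 2540 in controls. Its interval, -0.19 to 0.23 around 0.02, left out the estimate for Kat7 but not that for Brd1 (limma adjusted p = 0.899). Exons of Brpf1 and Brpf3 overlap antisense or bidirectional transcripts on the opposite strand. The libraries were strand-specific per the labels, but for the reason given for Sirt1 both values are uncertain.

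Of the JADE scaffolds, Jade2 and Jade3 fell and Jade1 did not pass the test. Jade2, whose protein is also known as a ubiquitin ligase for a histone demethylase, had the largest difference of the 10 genes. Its normalized counts were 2627, 2760, 2953, 2746 and 2050 in labelled-deleted replicates 7, 8, 10, 11 and 12, and 4088, 3426, 3487, 3610 and 3517 in control replicates 2 to 6. The groups did not overlap, with replicate 12 far below its group and control replicate 2 far above its own. Jade2 fell by 27.5% (log2 difference -0.47, SE 0.09, 95% interval -0.66 to -0.28; limma adjusted p = 0.00229). Jade3, on the X chromosome, measured 675, 723, 932, 843 and 624 in the labelled-deleted replicates in the same order, and 1142, 984, 872, 975 and 988 in the controls. Here the groups overlapped, since labelled-deleted replicate 10 stood above control replicate 4. Jade3 fell by 23.4% (log2 difference -0.40, SE 0.11; limma adjusted p = 0.0141; exact permutation p = 0.0159), and with an exact rank-sum test in place of limma the adjusted p was 0.0512. Jade1 ranged from 2793 to 3051 in the labelled-deleted samples and from 2726 to 2968 in controls. Its log2 difference was -0.003, with a 95% interval of -0.10 to 0.09 (limma adjusted p = 0.967). Its exons overlap an antisense transcript.

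Neither ING subunit passed the test. Ing4 ranged from 1706 to 2137 normalized counts in the labelled-deleted samples and from 1711 to 2018 in controls (log2 difference 0.04, 95% interval -0.11 to 0.19; limma adjusted p = 0.696). Its exons overlap those of a processed transcript on the same strand, whose reads could be shared. Ing5 ranged from 1389 to 1599 and from 1488 to 1771 (log2 difference -0.12, 95% interval -0.26 to 0.02; limma adjusted p = 0.158). In both genes the groups overlapped.

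Meaf6, the small subunit that these complexes share, was the only one of the 10 genes called as higher. Its normalized counts were 2266, 2225, 2125, 2181 and 2380 in labelled-deleted replicates 7, 8, 10, 11 and 12, and 1713, 1979, 1870, 1870 and 2048 in control replicates 2 to 6. The highest control lay below the lowest labelled-deleted sample, and the most extreme samples were those of Kat7 in reverse, with replicate 12 highest and control replicate 2 lowest. Meaf6 rose by 17.9% (log2 difference 0.24, SE 0.06, 95% interval 0.12 to 0.36; limma adjusted p = 0.00729).

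In all 4 genes that fell, labelled-deleted replicate 12 had the lowest value of its group, and replicate 10 was the highest of its group in 3 of the 4, with replicate 7 highest in Brd1. Among controls, replicate 2 was the highest in all 4. Parts of this order were also seen in genes that did not pass the test. Ing5 was likewise lowest in replicate 12 and highest in replicate 10 of its group. Jade1 was highest in replicate 10, and Brpf1 and Jade1 were highest in control replicate 2. Over all 10 genes, replicate 12 was the lowest of its group in 5, replicate 10 the highest in 5 and control replicate 2 the highest in 6. Brpf3, in contrast, was highest in replicate 11 and lowest in replicate 8. Without labelled-deleted replicates 10 and 11 together, an omission chosen from earlier results of these data, the log2 difference was -0.45 for Kat7, -0.18 for Brd1, -0.56 for Jade2, -0.55 for Jade3 and 0.27 for Meaf6, and all 5 passed the test (limma). These 2 samples hold the highest Kat7 and Jade3 values of their group, so the larger falls without them follow from the omission and are not separate support.

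**Figure D2:**
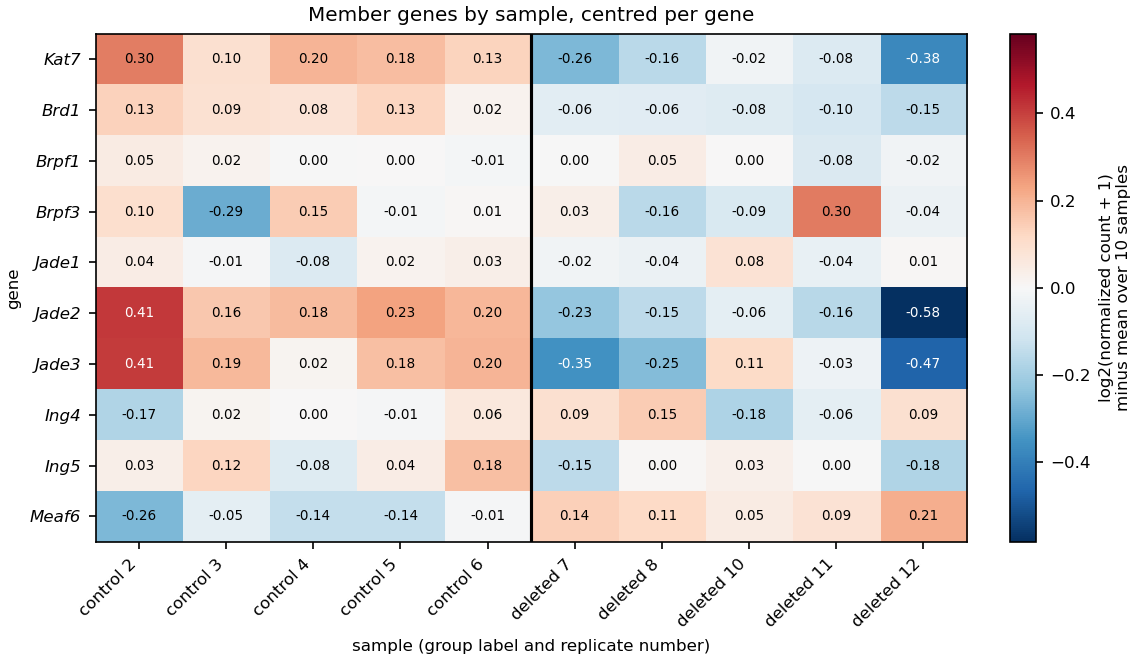
Log2(normalized count + 1) of each gene (rows) in each sample (columns, controls left of the line), minus the gene's mean over the 10 samples. Kat7, Jade2 and Jade3 are highest in control 2 (0.30, 0.41 and 0.41) and lowest in labelled-deleted replicate 12 (-0.38, -0.58 and -0.47), and Meaf6 is lowest in the former (-0.26) and highest in the latter (0.21).

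To ask whether the subunits moved differently from Kat7, each gene was divided by Kat7 in the same sample, a ratio that no scaling of the samples can change, and the ratios of all other tested genes were compared in limma. Relative to Kat7, 7 of the 9 subunits were higher in the labelled-deleted samples (Brd1, Brpf1, Brpf3, Jade1, Ing4, Ing5 and Meaf6) and none was lower (limma, 0 also at an unadjusted p under 0.05). Kat7 itself stood low among all genes, so that 56.1% of them were called as different by the same rule, 54.3% above it and 1.78% below it. The ratios are not corrected for transcript length and are compared only between samples. The largest shift was in Meaf6, whose ratio to Kat7 was 0.67 to 0.961 in the labelled-deleted samples and 0.433 to 0.582 in controls, a 1.51-fold increase (log2 difference of the ratio 0.60, SE 0.11; limma adjusted p = 8.87e-04). The ratio of Brpf1 rose 1.26-fold, from 0.886 to 1.00 in controls to 1.05 to 1.35 (limma adjusted p = 0.00272), and that of Jade1 rose 1.28-fold (limma adjusted p = 0.00177). Those of Brpf3 and Ing4 rose 1.30-fold and 1.32-fold (limma adjusted p = 0.00625 and 0.0127). With the exact rank-sum test the adjusted p of the Ing4 ratio was 0.0587.

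Brd1 fell less than Kat7, with a log2 difference of the ratio of 0.18 (SE 0.07; limma adjusted p = 0.0367), but the call was near the threshold. It was lost without labelled-deleted replicate 7, 8 or 12 (adjusted p = 0.0936, 0.0656 and 0.0819) and without control replicate 2, 4, 5 or 6 (adjusted p = 0.0786, 0.0729, 0.0547 and 0.0679). On all samples it was lost without the intensity trend (adjusted p = 0.061) and with the exact rank-sum test (adjusted p = 0.0928). The ratio of Ing5 to Kat7 rose 1.18-fold (limma adjusted p = 0.0193), and this call was lost without control replicate 2 (adjusted p = 0.0503) or 4 (adjusted p = 0.053). Jade2 and Jade3 were not shown to differ from Kat7. The log2 difference of the ratio was -0.11 for Jade2 (95% interval -0.24 to 0.02; limma adjusted p = 0.119; unadjusted exact permutation p = 0.0317) and -0.04 for Jade3 (95% interval -0.21 to 0.14; limma adjusted p = 0.72).

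**Figure D3:**
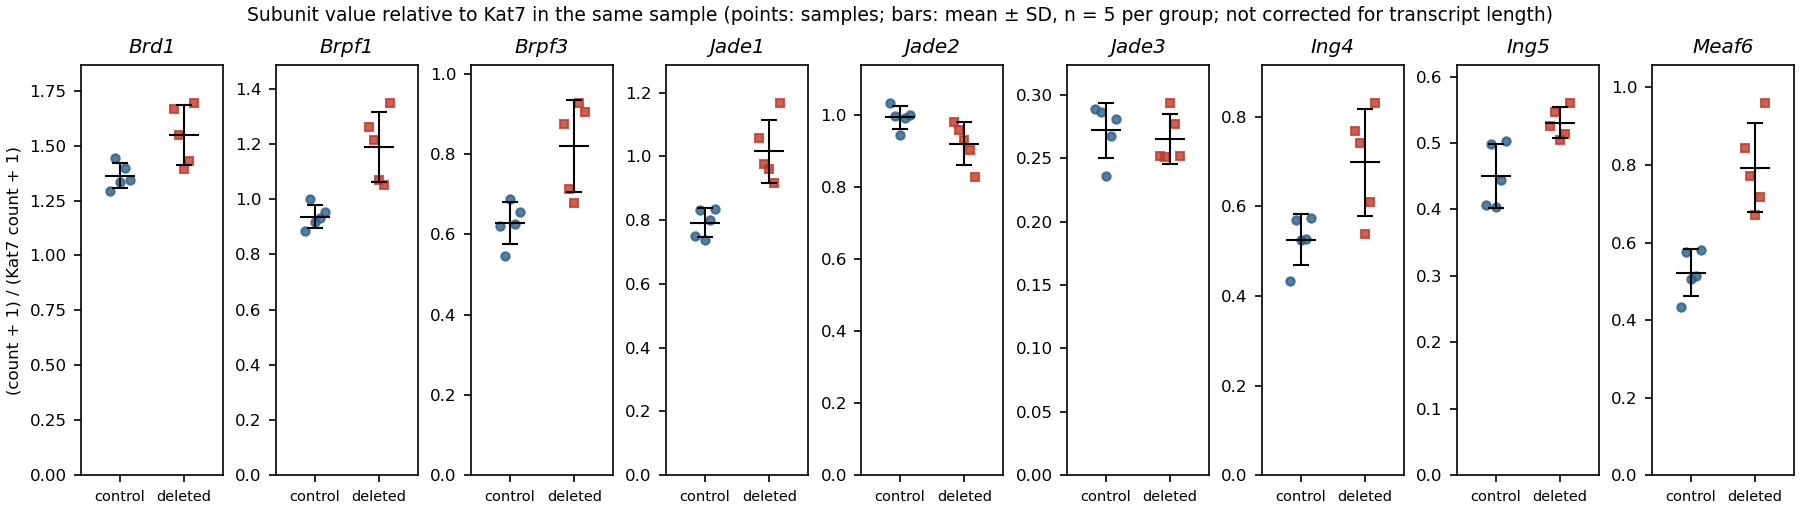
Value of each subunit divided by that of Kat7 in the same sample (vertical axes, from 0; 1 added to both counts), for 5 control and 5 labelled-deleted samples with mean ± SD. The ratios of Brpf1, Jade1, Ing5 and Meaf6 do not overlap between the groups, while those of Brd1, Brpf3, Jade2, Jade3 and Ing4 do. The share of all genes whose ratios do not overlap was not computed, and 54.3% of them were called above Kat7 in limma.

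The sample-to-sample profile of Kat7 was most like those of Jade2, Jade3 and Brd1 among its subunits. Likeness was measured as the root mean square difference between log2 profiles over the 10 samples, each centred on its own mean, which reflects the group difference as well as the spread within groups. The distance to Kat7 was 0.0874 for Jade2, 0.101 for Jade3 and 0.127 for Brd1, and it was largest for Meaf6 at 0.344. Among 6395 other genes with a mean of at least 1000 normalized counts, 10.2% were nearer to Kat7 than Jade2 was, 15.5% nearer than Jade3 and 25.9% nearer than Brd1. The 3 nearest were Lypla1, which encodes an acyl-protein thioesterase (distance 0.0281), Hmga1, which encodes a chromatin protein that binds AT-rich DNA (0.0311), and Ddx19b, which encodes an RNA helicase of mRNA export (0.0325). They were picked for this likeness, so their own falls are not tested.

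Among the related genes, 1 of the 4 other MYST acetyltransferase genes fell, where 19.4% of all tested genes were called as lower. Kat6a, whose protein shares scaffolds with KAT7, ranged from 3379 to 4122 normalized counts in the labelled-deleted samples and from 4638 to 5548 in controls, without overlap (log2 difference -0.41, SE 0.06; limma adjusted p = 8.95e-04). The other 3 (Kat5, Kat6b and Kat8) did not pass the test, with log2 differences of -0.10, -0.27 and -0.08. The median of the 4 was -0.19. Without labelled-deleted replicate 10 or 11, or control replicate 4, 2 of the 4 were called. Of the 3 ING genes whose proteins belong to other complexes, Ing3 was called as lower (log2 difference -0.26, SE 0.09; limma adjusted p = 0.0406) and Ing1 and Ing2 did not pass. The Ing3 call was lost under 5 processing alternatives and without labelled-deleted replicate 7 or 12 or control replicate 2, 4 or 5 (adjusted p = 0.1004, 0.0932, 0.0954, 0.0833 and 0.0881).

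Genes of replication origin licensing, the process in which KAT7 is known to act, moved in both directions. Of 18 genes, 8 fell, 3 rose and 7 did not pass the test (limma), and their median log2 difference was -0.11. Over all tested genes, 19.4% were called as lower and 16.8% as higher by the same rule. Of the 3 fallen genes with the smallest p, Mcm7, a subunit of the replicative helicase, had 15377 ± 1192 normalized counts in the labelled-deleted group and 18464 ± 1084 in the control group (SD, n = 5 each; log2 difference -0.27, limma adjusted p = 0.00549). Orc3 and Orc5, subunits of the origin recognition complex, fell by 0.33 and 0.22 on the log2 scale (limma adjusted p = 0.00865 and 0.0106). The helicase subunit genes Mcm2, Mcm5 and Mcm6 also fell, with overlapping groups (log2 differences -0.24, -0.28 and -0.30, limma adjusted p = 0.0319, 0.0236 and 0.0259). Mcm4 did not pass the test (log2 difference -0.14, limma adjusted p = 0.163). The risen genes were Mcm3, another helicase subunit (log2 difference 0.42, limma adjusted p = 0.00168), Gmnn, which encodes the licensing inhibitor geminin (0.24, limma adjusted p = 0.00411), and Mcm10, which acts when the helicase is activated (0.27, limma adjusted p = 0.0119). Rescaling to T lineage markers ended the calls of Gmnn (adjusted p = 0.0614) and Mcm10 (adjusted p = 0.077), and the rank-sum test that of Mcm10 (adjusted p = 0.0512). Cdt1, which encodes a loading factor that binds KAT7, was singled out after its values were seen: it fell by 0.24 on the log2 scale (limma adjusted p = 0.0145). Without labelled-deleted replicate 7 or control replicate 2, 7 of the 18 genes were called.

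Of 5 genes reported elsewhere to need KAT7 or BRD1, 4 passed the filter and 1 of them differed, where 36.1% of all tested genes were called. Cd8b1, which encodes the CD8 beta chain, ranged from 2116 to 2679 normalized counts in the labelled-deleted samples and from 2986 to 3421 in controls (log2 difference -0.47, SE 0.06; limma adjusted p = 5.81e-04). Its partner Cd8a had a log2 difference of -0.27 with a wide interval (-0.57 to 0.04; limma adjusted p = 0.164). Gata1, the erythroid transcription factor, and Hoxa9, which was barely expressed at 12.4 ± 5.69 and 14.1 ± 3.68 normalized counts, did not pass the test, and Hoxa10 was under the filter. Without labelled-deleted replicate 11, 2 of the 4 tested genes were called.

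**Figure D4:**
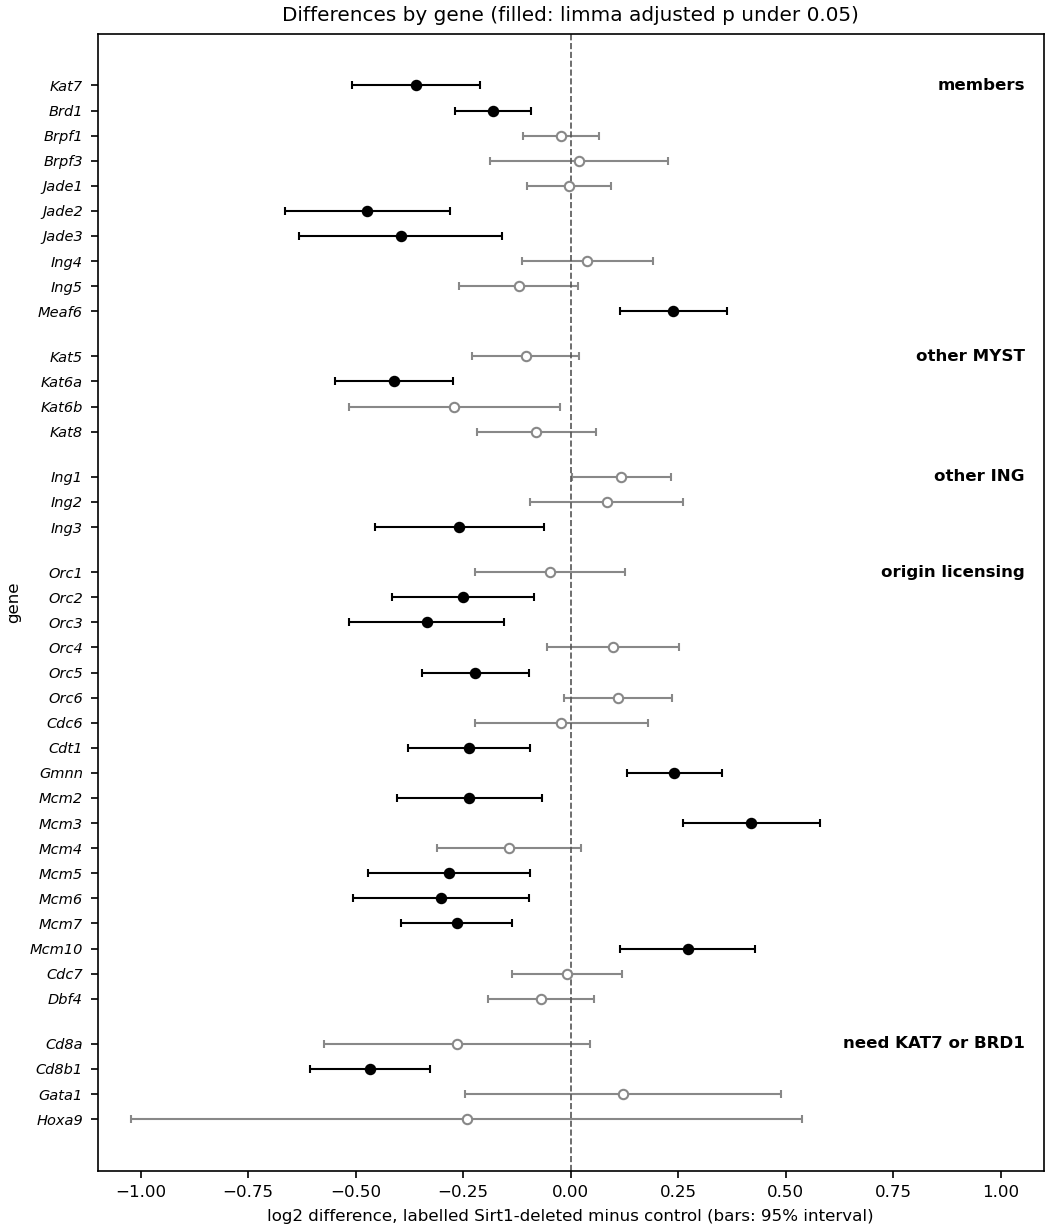
Log2 difference between labelled-deleted and control samples (horizontal axis, with 95% intervals; n = 5 per group) for Kat7 and its subunits, the other MYST and ING genes, 18 origin licensing genes and 4 genes reported to need KAT7 or BRD1. Filled points passed the test (limma adjusted p under 0.05); Jade2 lies lowest among the subunits at -0.47, Meaf6 highest at 0.24, and the licensing genes lie on both sides of 0.

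Some markers of other cell types also differed between the groups. For comparison, 16.8% of all tested genes were called as higher and 19.4% as lower. Of 12 neutrophil markers, 11 were higher and none lower in the labelled-deleted samples (limma), and their summed value was 26786 to 91664 there and 8361 to 11610 in controls. Of 12 macrophage and monocyte markers, 9 were higher and none lower, with sums of 6751 to 12298 and 3149 to 3593. None of the 8 B cell or 10 erythroid markers passed the test in limma (2 and 1 at an unadjusted p under 0.05), and the sums of both lists overlapped. Among 8 stromal and endothelial markers, 7 were tested and 2 were lower (Col1a2 and Pdgfrb), with sums of 4966 to 5447 and 5736 to 6663. These sums came mostly from Pecam1 (mean 3192 in the labelled-deleted samples and 3252 in controls) and Pdgfrb (1459 and 2170). Pecam1 did not pass the test (limma adjusted p = 0.754), nor did Kdr. Col1a1, Col3a1 and Stab2 had positive differences that did not pass, and Cdh5 was under the filter. Of 7 NK markers, 6 were in the table and 3 were tested, none of them called (limma, 0 at an unadjusted p under 0.05), and the sums overlapped. Nearly all of the NK sum was Gzma (mean 14982 in the labelled-deleted samples and 13290 in controls), so the overlap describes that gene. Klrb1c, Klre1 and Klra8 were under the filter. No marker in the table was at 0 in every sample. Within the labelled-deleted group, the neutrophil sum and the normalized count of Kat7 were 26786 and 3173 in replicate 10, 36868 and 3045 in replicate 11, 41492 and 2477 in replicate 12, 55012 and 2682 in replicate 7, and 91664 and 2881 in replicate 8. The 2 samples with the lowest neutrophil sums had the highest Kat7, while among the other 3 Kat7 was higher where the neutrophil sum was higher. After rescaling so that T lineage markers had the same mean log2 value in every sample, the log2 difference was -0.40 for Kat7, -0.22 for Brd1, -0.51 for Jade2, -0.44 for Jade3 and 0.20 for Meaf6, and all 5 passed the test (limma adjusted p = 0.00638, 0.0185, 0.00315, 0.0218 and 0.0319). The part of the other cell types in these differences was not tested.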

How the data were processed

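RNA from 10 leukemic spleens was analysed. The table deposited by the authors holds a normalized signal: counts per gene divided by DESeq factors, as its name states. Per the submitters' processing notes, the authors used kallisto 0.44.0, DESeq and mm10. The transcript annotation and whether genes were filtered are not given in the sources used here. The columns were matched to samples by title, and 0 columns lay outside the samples. Of values under 8.5, 66.9% to 74.3% per sample lay within 0.1 reads of a whole multiple of the commonest low value, so whole reads were not recovered and no count model was used. The groups were compared in limma (version 3.58.1, R version 4.3.3; a group term and an intensity trend) on log2(value + 1) for genes with a mean of at least 10, a scale that understates changes of low genes. Benjamini-Hochberg adjustment ran over all tested genes. Exact two-sided permutation tests ran over 252 assignments. The script was tested on simulated data. Named are the 10 genes, Sirt1, the 3 genes most like Kat7, all genes of the shorter related lists and some cell type markers. Of the licensing list, where over 6 were called, the 3 of smallest p in each direction were taken. Cdt1 was added after its values were seen, and Mcm2, Mcm4, Mcm5 and Mcm6 as the remaining subunits of the helicase. The genes and lists were chosen with earlier results of these data known. Loci came from GENCODE M21 (GRCm38) and promoters from RefSeq.

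Alternatives were pseudocounts of 0.1 and 5, no filter or a minimum mean of 50, upper-quartile, quantile and T lineage marker rescaling, no intensity trend, sample weights, a rank-sum test with exact p-values, and omission of each sample or of 2 together. The depth in reads is unknown, so no counting intervals are given.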

Additional observations from a re-analysis of the deposited data

Results flagged for a closer look

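Each named gene, apart from Mcm2, Mcm4, Mcm5, Mcm6 and the cell type markers, was screened in each group for a sample that stands apart. The measure was the distance from the highest or lowest sample to the next, as a share of the group's range. Of 66 such screens, 5 passed the critical value of 0.71, where chance gives about 3.3. For Jade2, control replicate 2 measured 4088 normalized counts and the other controls 3426 to 3610 (share 0.723). It also stood above the other controls for Ddx19b, with 2152 beside 1895 to 1939 (share 0.827). For Mcm3, labelled-deleted replicate 12 measured 20166 and the others of its group 15529 to 16505 (share 0.79). For Kat5, control replicate 6 measured 1684 and the other controls 1572 to 1588 (share 0.86), and for Ing2, control replicate 5 measured 987 and the others 813 to 850 (share 0.786). Without control replicate 2 the log2 difference of Jade2 was -0.43 and still passed the test (limma adjusted p = 0.00725), and without labelled-deleted replicate 12 that of Mcm3 was 0.35 (limma adjusted p = 0.00136).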

How the results depend on the processing

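No paired analysis was possible because no number in the titles occurs in both groups. Count models (edgeR, DESeq2) were planned only for whole reads and were not run. Kat7 and Sirt1 kept their direction and their side of the threshold under the 11 alternatives run for each (Kat7 from -0.45, without labelled-deleted replicates 10 and 11, to -0.30; Sirt1 from 0.0059 to 0.11) and without each single sample (-0.40 to -0.31 and 0.0048 to 0.077). The number of called genes among the 10 was 4 with the exact rank-sum test, which lost Jade3, and 5 under the other alternatives and in the 10 fits without 1 sample. The number of subunits called as different from Kat7 was 5 to 7. Upper-quartile rescaling moved the median log2 difference over the tested genes from -0.00014 to 0.058 and turned their calls from 2562 higher and 2956 lower to 3162 higher and 2272 lower; the exact rank-sum test called 1691 higher and 1968 lower.

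The reversals were all in genes that passed the test in none of these fits. Brpf1 was 0.0373 and Jade1 0.056 after upper-quartile rescaling, and 0.0375 and 0.0549 after quantile normalization. Brpf3 was -0.0215 and Ing4 -0.0013 after T lineage marker rescaling, and Brpf3 was -0.0445 without labelled-deleted replicates 10 and 11 together. Without 1 sample, Brpf3 ranged from -0.0538 to 0.0611 and Jade1 from -0.0246 to 0.0074. Of the other MYST genes, 2 were called with sample weights and 3 without replicates 10 and 11 together (1 to 2 without 1 sample). Of the other ING genes, 0 were called after T lineage marker rescaling, without trend and with the rank-sum test (0 to 1 without 1 sample), with 1 at an unadjusted p under 0.05 in each of these 3. After upper-quartile and quantile rescaling 1 was still called, but Ing3 was not (limma adjusted p = 0.0723 and 0.094). The called gene there was thus Ing1 or Ing2, whose log2 differences in the main fit were 0.12 and 0.08. Of the licensing genes, 6 were called with the rank-sum test (7 to 12 without 1 sample). Of the genes reported to need KAT7 or BRD1, 2 were called with sample weights and without replicates 10 and 11 together (1 to 2 without 1 sample). The cause of these changes was not tested.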
